A study of Homo sapiens with 6 samples.

Results

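The genes described here are 10 negative regulators of mitogen-activated protein kinase (MAPK) signaling, chosen by name: the dual-specificity phosphatase genes *DUSP1*, *DUSP4*, *DUSP5*, *DUSP6*, *DUSP8* and *DUSP10*, the Sprouty genes *SPRY2* and *SPRY4*, and the Sprouty-related genes *SPRED1* and *SPRED2*. The choice was made with earlier results of these data known. All 10 genes were in the table, which held 17177 genes. RNA-seq was carried out on NCI-H660, an established human cell line of neuroendocrine prostate cancer (NEPC) that carried no engineered change by the labels (genotype WT). The cells were collected on day 3 of treatment with pyrvinium pamoate (PP), an anthelmintic that the study used as an inhibitor of the RNA-binding protein ELAVL3, or with PBS as the control, and 3 libraries were made for each treatment. The comparison asked how gene expression in these cells changed under PP. The PP concentration for this experiment is not given in the sources used here, the findings come from 1 cell line at 1 time point, and the study's text calls the samples independent without saying whether the libraries of a treatment came from separate cultures. If they did not, the p-values measure only a spread between libraries that may be technical.

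MAP kinases are switched on by phosphorylation of a threonine and a tyrosine, and DUSPs of the MAP kinase phosphatase family switch them off by removing both phosphates. Several of these genes are themselves induced by the kinases they restrain, so their transcripts are widely read as markers of negative feedback. SPRY and SPRED proteins act further upstream: Sprouty proteins restrain the signal between receptor tyrosine kinases and RAS, and SPRED proteins bring the RAS inactivator neurofibromin to the membrane.

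Expression was given as FPKM, the fragments of a gene per kilobase of transcript scaled to the mapped fragments of the library, so levels can be set side by side between genes as far as the transcript length behind them holds. The fragment counts recovered from the values summed to 29064253 to 32481171 per library over the genes of the table. Of 9 neuroendocrine markers, 8 had a mean of at least 1 FPKM, so the label of the cells held for these markers. Their summed level was 498 to 503 FPKM in the PBS libraries and 330.0 to 345 FPKM in the PP libraries. *CHGA*, which encodes the secretory granule protein chromogranin A, went from 43.3 ± 0.870 to 24.8 ± 1.09 FPKM, and the transcription factor gene *NKX2-1*, whose change made up most of the fall of the sum, from 224 ± 2.94 to 92.0 ± 3.05 FPKM. Lower with PP and without overlap were also *CHGB* (34.9 and 27.8 FPKM with PBS and PP), *SYP* (30.9 and 26.1 FPKM) and *ENO2* (69.5 and 62.4 FPKM). The other markers did not move with them. *NCAM1* had a mean of 15.4 FPKM with either treatment, and *SCG3* had 65.9 and 70.3 FPKM with overlapping libraries. *INSM1* had 16.5 and 19.3 FPKM and *FOXA2* 0.306 and 0.893 FPKM with PBS and PP, both higher with PP and without overlap. Of 6 luminal prostate markers, 3 were in the table and 0 reached a mean of 1 FPKM over all libraries, with summed levels of 0.819 to 1.401 FPKM with PBS and 0.399 to 0.788 FPKM with PP. Of 11 stromal, endothelial and immune markers, 3 reached 1 FPKM, and their summed level was 9.03 to 9.79 FPKM with PBS and 8.35 to 8.47 FPKM with PP. The sum thus moved with the treatment, mainly through *NKX2-1*, and its part in the results on the feedback genes was not tested. In bulk RNA, a smaller share of cells of a given state and less of a transcript per cell cannot be told apart.

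The feedback genes divided in direction under PP. *DUSP1*, *DUSP8*, *DUSP10* and *SPRY2* were higher, *DUSP4* and *SPRY4* were lower, *DUSP5*, *DUSP6* and *SPRED2* did not pass the test, and *SPRED1* was too low for either fit. Differences were tested with limma on log2(FPKM + 1) over the 11726 genes whose mean was at least 1 FPKM, and 7 of the 10 feedback genes were among them. With an adjusted p under 0.05 as the threshold, 4 of the 7 rose, against 38.1% of all genes tested, and 1 fell, against 34.4% of all genes tested. PP changed a large part of the transcriptome, so a call for a single feedback gene was no rarity. Their median log2 fold change was 0.29, against 0.02 over all genes tested. None of the 7 passed the stricter cutoff stated in the methods (P under 0.001 and a log2 fold change beyond 1 in either direction), which 2.24% of genes passed upward and 2.93% passed downward. The same limma fit gave 5 of the 7 an unadjusted p under 0.05, against 74.3% of all genes tested. The 3 remaining genes lay below the filter. *SPRY4* and *DUSP5* were taken from a second fit over 13771 genes with a mean of at least 0.1 FPKM, and *SPRED1* is described by its values alone.

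*DUSP1*, *DUSP4* and *DUSP5* encode inducible phosphatases of the nucleus. *DUSP1* (ENSG00000120129, hg19 chr5:172195099-172198198, minus strand) encodes MKP-1, an immediate-early gene product that acts on p38, JNK and ERK. Its level was 10.3, 10.1 and 10.7 FPKM in the PBS libraries and 18.9, 21.7 and 19.7 FPKM in the PP libraries. All PP libraries lay above all PBS libraries, with a wide gap between the treatments. The mean rose from 10.4 ± 0.306 to 20.1 ± 1.43 FPKM (SD, n = 3 each), a log2 fold change of 0.89 (SE 0.06, limma adjusted p = 2.37e-07). On the count scale, in which whole fragment counts were recovered from the FPKM values and fitted with limma's voom, *DUSP1* was 1.93-fold higher (95% confidence interval 1.73 to 2.15).

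*DUSP4* (ENSG00000120875, hg19 chr8:29190581-29208201, minus strand) encodes MKP-2, a close relative of MKP-1. Its level was 2.17, 2.64 and 2.58 FPKM with PBS and 1.95, 2.11 and 1.99 FPKM with PP. The highest PP library lay just below the lowest PBS library. The mean fell from 2.46 ± 0.257 to 2.01 ± 0.0827 FPKM, with a log2 fold change of -0.20 (SE 0.07, limma adjusted p = 0.0308), and on the count scale the ratio was 0.821 (95% confidence interval 0.713 to 0.945, adjusted p = 0.0119). This was the smallest change among the called feedback genes, and the call was lost when any 1 of 4 libraries was left out. The limma adjusted p was 0.111 without PBS replicate 2, 0.0958 without PBS replicate 3, 0.0785 without PP replicate 1 and 0.0692 without PP replicate 3.

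*DUSP5* (ENSG00000138166, hg19 chr10:112257665-112271291, plus strand) encodes a nuclear phosphatase selective for ERK. It had 0.261, 0.468 and 0.568 FPKM with PBS and 0.408, 0.762 and 0.825 FPKM with PP, which rested on 20 to 44 and 31 to 67 fragments per library. The treatments overlapped, since the lowest PP library lay below 2 of the PBS libraries. In the second fit the log2 fold change was 0.21 (95% confidence interval -0.04 to 0.47, limma adjusted p = 0.125), and the count scale gave a ratio of 1.54 with an interval from 0.911 to 2.62. The SD between libraries was 0.157 FPKM with PBS and 0.225 FPKM with PP, where counting alone would give 0.0757 and 0.0925 FPKM. Leaving out PP replicate 1, the low PP library, moved the log2 fold change to 0.33 (limma adjusted p = 0.0171).

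*DUSP6* (ENSG00000139318, hg19 chr12:89741012-89746278, minus strand) encodes MKP-3, the cytoplasmic ERK phosphatase that is often measured as a readout of ERK activity. Its level was 2.43, 2.27 and 2.29 FPKM with PBS and 2.44, 2.91 and 2.44 FPKM with PP. The lowest PP library and the highest PBS library were almost equal, and 1 PP library stood above the rest. The means were 2.33 ± 0.0877 and 2.60 ± 0.271 FPKM, and the log2 fold change of 0.11 (95% confidence interval -0.05 to 0.27) did not pass the test (limma adjusted p = 0.191). The interval on the count scale ran from 0.927-fold to 1.33-fold. *DUSP6* shares 1105 exon bases with an annotated long noncoding RNA on the opposite strand. The library kit keeps the strand, but how the counting used it is not given in the sources used here.

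*DUSP8* and *DUSP10* encode phosphatases that prefer the stress-activated kinases JNK and p38 over ERK. *DUSP8* (ENSG00000184545, hg19 chr11:1575281-1593501, minus strand) was at 11.8, 10.6 and 12.6 FPKM with PBS and at 22.1, 22.1 and 22.1 FPKM with PP. All PP libraries stood far above the PBS libraries. The mean rose from 11.6 ± 1.003 to 22.1 FPKM, with a log2 fold change of 0.87 (SE 0.06, limma adjusted p = 3.69e-07) and a 1.90-fold rise on the count scale (95% confidence interval 1.77 to 2.05). The SD among the PP libraries was 0.00586 FPKM, where counting alone would give about 0.345 FPKM, so these libraries lay closer together than their depth can assure. *DUSP10* (ENSG00000143507, hg19 chr1:221874766-221915431, minus strand), which encodes MKP-5, had 1.20, 1.08 and 1.36 FPKM with PBS and 1.68, 1.71 and 1.70 FPKM with PP. Again the treatments did not overlap. The mean rose from 1.21 ± 0.140 to 1.69 ± 0.0158 FPKM, a log2 fold change of 0.29 (SE 0.07, limma adjusted p = 0.00464) and a count-scale ratio of 1.40 (95% confidence interval 1.20 to 1.64).

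The 250 bases before the RefSeq gene starts of *DUSP1* and *DUSP8* are shown (GRCh38.p14, written 5′ to 3′ on the gene strand). These windows were chosen because they hold the motif marked in capitals, so its presence in them is no separate finding. Capitals mark the full cyclic AMP response element TGACGTCA, the motif bound by CREB and ATF family factors, which reads the same on both strands. The *DUSP1* window is chr5:172771196-172771445 and the *DUSP8* window is chr11:1572272-1572521, both on the minus strand.
DUSP1: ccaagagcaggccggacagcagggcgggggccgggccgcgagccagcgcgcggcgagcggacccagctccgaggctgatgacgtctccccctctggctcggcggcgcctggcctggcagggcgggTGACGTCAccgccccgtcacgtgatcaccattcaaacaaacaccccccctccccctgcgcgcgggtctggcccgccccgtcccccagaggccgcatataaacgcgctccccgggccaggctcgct
DUSP8: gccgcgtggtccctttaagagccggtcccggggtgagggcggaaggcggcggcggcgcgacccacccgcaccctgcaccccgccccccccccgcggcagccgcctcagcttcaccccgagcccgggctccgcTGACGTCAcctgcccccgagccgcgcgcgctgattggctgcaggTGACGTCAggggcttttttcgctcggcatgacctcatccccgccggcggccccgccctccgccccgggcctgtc

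The *DUSP1* window held the element once, starting 125 bases before the gene start, and the *DUSP8* window held it at 118 and 74 bases before the gene start. Of the 10 feedback genes, 8 matched a RefSeq promoter entry, and of these *DUSP1* and *DUSP8* were the ones with this motif. *DUSP4* and *DUSP5* had no entry and were not searched. The element was in 1.65% of all 35116 promoters of this length and in 3.61% of the 9557 tested genes with a promoter, and 0.115% of these genes had more than 1 copy. Other motifs were searched on both strands in the same windows. The AP-1 motif TGANTCA was in 0 of the 8 genes, in 6.57% of all promoters and in 5.59% of the tested genes. The ETS motif CCGGAAG was in 0 of the 8, in 8.52% of promoters and in 19.8% of tested genes, and the composite C/EBP-ATF motif TGATGNAAT was in 0 of the 8, in 0.888% and in 0.565%. A match describes the letters of the window, and binding was not measured here.

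*SPRY2* (ENSG00000136158, hg19 chr13:80910111-80915261, minus strand) and *SPRY4* (ENSG00000187678, hg19 chr5:141689992-141706020, minus strand) encode related inhibitors of receptor tyrosine kinase signaling, and they moved in opposite directions. *SPRY2* had 0.848, 1.02 and 0.536 FPKM with PBS and 1.86, 1.79 and 1.76 FPKM with PP. The PP libraries were close together and all above the PBS libraries, which spread more widely and rested on 58 to 104 fragments each. The mean rose from 0.803 ± 0.247 to 1.80 ± 0.0518 FPKM, a log2 fold change of 0.65 (SE 0.10, limma adjusted p = 0.000187). On the count scale the ratio was 2.33 (95% confidence interval 1.75 to 3.09), the largest of the 9 genes fitted, and there *SPRY2* passed the stricter cutoff, as 3.39% of genes did upward. The difference between the scales shows how much the added pseudocount of 1 FPKM shrinks changes at levels near 1 FPKM.

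*SPRY4* was at 0.996, 1.11 and 1.11 FPKM with PBS and at 0.587, 0.476 and 0.524 FPKM with PP. Every PP library lay below every PBS library, with 103 to 129 against 221 to 249 fragments. The mean fell from 1.07 ± 0.0663 to 0.529 ± 0.0554 FPKM, and in the second fit, in which 32.4% of genes fell, the log2 fold change was -0.44 (SE 0.06, limma adjusted p = 0.000182). The count-scale ratio was 0.493 (95% confidence interval 0.388 to 0.627), which passed the stricter cutoff as 5.67% of genes did downward in that fit. *SPRY4* was the feedback gene with the strongest fall, and the only one besides *DUSP4* whose libraries lay wholly below those of PBS.

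**Figure D1:**
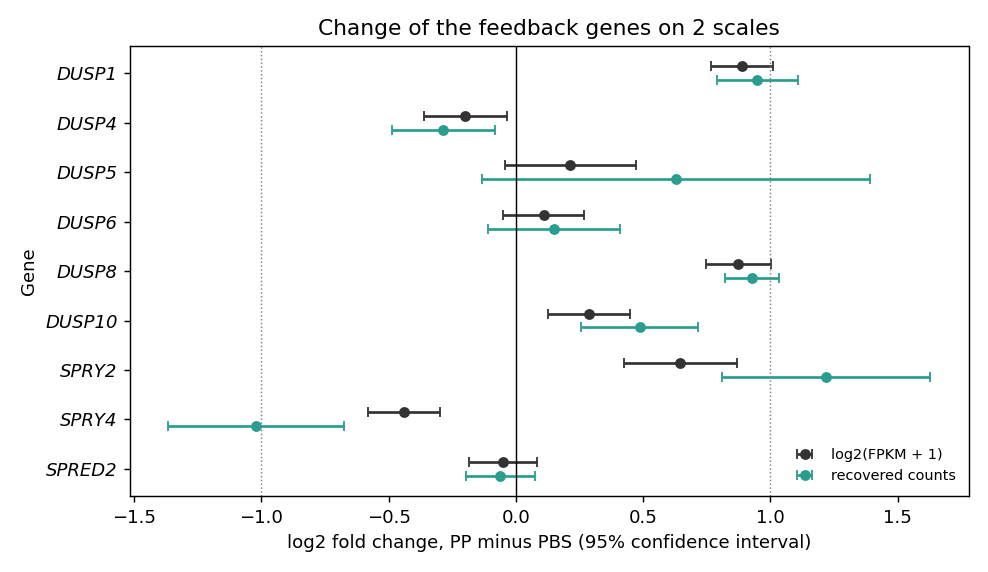
Log2 fold change, PP minus PBS, of the 9 feedback genes that entered a fit, on the log2(FPKM + 1) scale (black) and on the scale of recovered counts (green), as the estimate with its 95% confidence interval. Dotted lines mark a log2 fold change of 1 in either direction. The 2 scales differ most for *SPRY2* (0.65 and 1.22), *SPRY4* (-0.44 and -1.02) and *DUSP5* (0.21 and 0.63), which have low levels.

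*SPRED2* (ENSG00000198369, hg19 chr2:65537985-65659771, minus strand) was the more abundant SPRED gene. It had 6.65, 6.61 and 6.87 FPKM with PBS and 6.48, 6.93 and 5.95 FPKM with PP. The treatments overlapped, with the highest and the lowest of the 6 values both in PP libraries. The log2 fold change was -0.05 (95% confidence interval -0.18 to 0.08, limma adjusted p = 0.459), and the count-scale interval from 0.872-fold to 1.05-fold included no change. *SPRED1* (ENSG00000166068, hg19 chr15:38545037-38649450, plus strand) was near the limit of detection. It had 0.0799, 0.0883 and 0.104 FPKM with PBS and 0.0550, 0.0708 and 0.0824 FPKM with PP, or 74 fragments in all with PBS and 58 with PP. The libraries overlapped, and the ratio of 0.766 had an exact 95% interval of 0.534 to 1.09 that covers counting error only, so no difference was detectable at this depth.

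Beside the tests, the libraries of the 2 treatments did not overlap for 7 of the 10 genes. PP was above in 5 of them, *DUSP6* by a narrow margin, and below in 2. Over the 11726 genes with a mean of at least 1 FPKM, PP was wholly above PBS in 39.5% and wholly below in 35.5%. *SPRY4*, *DUSP5* and *SPRED1* lay under that filter, so these shares are over a set that leaves them out. Counts of this kind were thus common in the whole transcriptome.

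The summed FPKM of the 6 DUSP genes was higher with PP, mainly through *DUSP1* and *DUSP8*. These were the most abundant of the 6 and had the largest ratios of means (1.94 and 1.90), so their share had to rise. *DUSP4* was lower, and *DUSP5* and *DUSP6* did not pass the test. The 6 DUSP genes summed to 28.4 ± 1.49 FPKM with PBS and 49.1 ± 1.93 FPKM with PP, a ratio of 1.73. *DUSP1* and *DUSP8* together were 77.3 ± 1.12% of that sum with PBS and 85.8 ± 0.490% with PP, while *DUSP6* went from 8.21 ± 0.522% to 5.28 ± 0.355%. By role, the shares of the nuclear inducible genes *DUSP1*, *DUSP4* and *DUSP5* were 46.7 ± 1.80% and 46.3 ± 1.55% with PBS and PP. Those of the JNK and p38 phosphatase genes *DUSP8* and *DUSP10* were 45.1 ± 1.88% and 48.5 ± 1.85%. Sums and shares depend on the transcript length behind FPKM. With the annotated exonic lengths and PBS, *DUSP8* and *DUSP10* would be at 13.9 and 3.57 FPKM. *DUSP1*, *DUSP4* and *DUSP5* would be at 10.4, 2.46 and 0.423 FPKM, so the order of these classes with PBS would be reversed. The SPRY genes summed to 1.88 ± 0.244 FPKM with PBS and 2.33 ± 0.101 FPKM with PP, since the gain of *SPRY2* exceeded the loss of *SPRY4*. The SPRED genes summed to 6.80 ± 0.151 and 6.52 ± 0.484 FPKM. These sums are descriptions and were not tested.

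The balance within 4 pairs of related genes was compared as the log2 ratio of FPKM + 1 in each library, with an exact two-sided permutation test, in which 3 against 3 libraries cannot give a p under 0.1. The ratio of *SPRY4* to *SPRY2* was 0.11, 0.06 and 0.46 with PBS and -0.85, -0.92 and -0.86 with PP, so *SPRY4* was the higher gene in every PBS library and the lower gene in every PP library. With PBS the levels of these genes overlapped between libraries. Counting alone would give an SD of 0.0874 FPKM for *SPRY2* and 0.0701 FPKM for *SPRY4* there, so their order with PBS is not firm. The difference in this ratio, PP minus PBS, was -1.09 (exact p = 0.1, adjusted over the 4 pairs 0.133), and with a pseudocount of 0.1 FPKM it was -2.02 (exact p = 0.1). The ratio of *DUSP4* to *DUSP5* fell short of its PBS value in all PP libraries (1.28 ± 0.08 with PBS and 0.87 ± 0.18 with PP, n = 3, exact p = 0.1), although with a pseudocount of 0.1 FPKM the libraries overlapped (difference -0.80, exact p = 0.2). For *DUSP8* to *DUSP10* the ratio was 2.51 ± 0.03 with PBS and 3.10 ± 0.01 with PP (n = 3, exact p = 0.1), without overlap. For *SPRED2* to *SPRED1* it was 2.82 ± 0.01 and 2.80 ± 0.11 (n = 3, exact p = 0.9), with overlap. For the other 3 pairs the exact permutation p was the smallest that the design allows, so none could pass a threshold of 0.05.

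**Figure D2:**
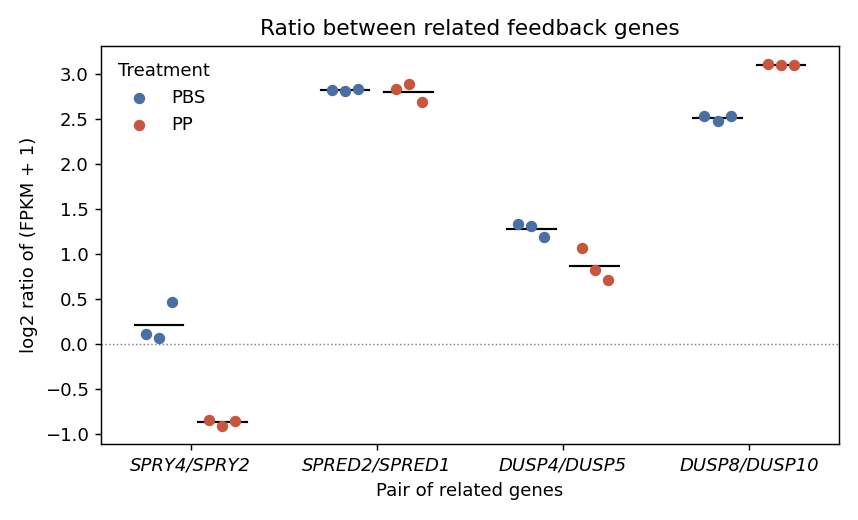
Log2 ratio of (FPKM + 1) between related feedback genes in each of the 3 PBS (blue) and 3 PP (red) libraries, with the mean of each treatment as a black bar and equal levels as a dotted line. The ratio of *SPRY4* to *SPRY2* lies above 0 in all PBS libraries and near -0.9 in all PP libraries, while that of *SPRED2* to *SPRED1* overlaps.

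In FPKM, the order of levels with PBS began with *DUSP8* and *DUSP1*, whose libraries overlapped, followed by *SPRED2*. *DUSP4* and *DUSP6* came next and overlapped each other, and *DUSP10*, *SPRY4*, *SPRY2* and *DUSP5* formed a run in which each gene overlapped the next. *SPRED1* was lowest and apart. With PP, *DUSP8*, *DUSP1*, *SPRED2*, *DUSP6*, *DUSP4*, *SPRY2* and *DUSP10* followed each other without overlap, *DUSP5* and *SPRY4* overlapped, and *SPRED1* was again apart. By their means, *DUSP6* and *DUSP4* thus changed places, as did *SPRY2* with both *SPRY4* and *DUSP10*, and *DUSP5* with *SPRY4*. In PBS replicate 1 *DUSP6* was already above *DUSP4* (2.43 and 2.17 FPKM). The overlaps leave the order of these 2 genes, and that of *SPRY4* and *SPRY2*, open with PBS. The order depends on the transcript length behind FPKM. For *DUSP10* this was 8331 bases, against 2827 exonic bases in the GENCODE annotation of hg19, and with the latter its level would be 3.57 FPKM with PBS and 4.99 FPKM with PP, which would place it at rank 4 rather than 6 with PBS. For *DUSP1* and *DUSP4* the lengths were the same in both. With the annotated lengths *DUSP10* would be above *SPRY2* with both treatments (0.865 FPKM for *SPRY2* with PBS and 1.94 FPKM with PP). Ratios on the count scale do not depend on this length, while values on the log2(FPKM + 1) scale do, through the pseudocount.

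The rest of the pathway was read from 7 lists. The counts of each list stand against 38.1% of all genes tested that rose and 34.4% that fell. Of the other MAP kinase phosphatases, 3 of 4 were tested, of which 2 rose and 0 fell (median log2 fold change 0.23). In the same limma fit 1 of the 3 did not pass. *DUSP16*, another JNK phosphatase gene, went from 7.19 ± 0.282 to 12.9 ± 0.701 FPKM (log2 fold change 0.76, limma adjusted p = 6.11e-07). Among atypical DUSPs, which lack the MAP kinase binding domain, 7 of 10 tested rose and 1 fell (median 0.32), with *DUSP15* at 0.997 and *DUSP23* at -0.51 as the ends. The medians of both lists lay beside the 0.29 of the feedback genes, and the difference was not tested.

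Of the inhibitors acting on RAS and ERK outside the 10 genes, 13 were tested. Of these, 3 rose and 6 fell (median -0.10), against 38.1% and 34.4% of all genes tested. Past the stricter cutoff 2 of them fell, as 2.93% of all genes tested did. That cutoff was also passed upward by 2 genes of the RAS-ERK cascade, against 2.24% of all genes tested. Downward it was passed by 2 receptor tyrosine kinases and by 1 gene each of the JNK and p38 cascades and the ERK-responsive transcripts. *RASA3*, which encodes a GTPase-activating protein for RAS and RAP, went from 6.33 ± 0.283 to 1.49 ± 0.237 FPKM (log2 fold change -1.56, limma adjusted p = 4.67e-08), and *CBLB*, a ubiquitin ligase gene, had the highest value at 0.63. In the RAS-ERK cascade itself 13 of 25 rose and 5 fell (median 0.14). *MKNK2*, which encodes a kinase downstream of ERK and p38 that phosphorylates eIF4E, rose from 65.4 ± 1.88 to 187 ± 4.17 FPKM (log2 fold change 1.50), and *RPS6KA1*, which encodes the ERK-activated kinase RSK1, was lowest at -0.40. In the JNK and p38 cascades 5 of 21 rose and 7 fell (23.8% and 33.3%, median -0.10). The p38 delta gene *MAPK13* fell from 76.3 ± 1.75 to 36.5 ± 0.995 FPKM (log2 fold change -1.04, limma adjusted p = 4.08e-09), and *MAP3K1* was highest at 0.44.

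Of 24 ERK-responsive transcripts, a list of genes known to follow ERK activity, 14 were tested, and the rest had a mean under 1 FPKM. The tested genes showed no common direction. Of the 14, 6 rose and 4 fell, against 38.1% and 34.4% of all genes tested, with a median of 0.02 beside the same median over all genes. Their ends were *HBEGF*, a growth factor gene, at 0.46 and the receptor gene *EPHA2* at -1.44. Receptor tyrosine kinases, of which 12 of 22 were tested, lay lowest of all lists, with 2 rising and 9 falling (median -0.60). *RET* went from 34.6 ± 0.627 to 10.1 ± 0.609 FPKM (log2 fold change -1.69, limma adjusted p = 9.92e-10), while *EGFR* went from 9.75 ± 0.144 to 11.2 ± 0.224 FPKM (log2 fold change 0.19, limma adjusted p = 0.00327). Phosphorylation of the kinases was not measured, so these values describe transcripts and not pathway activity.

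**Figure D3:**
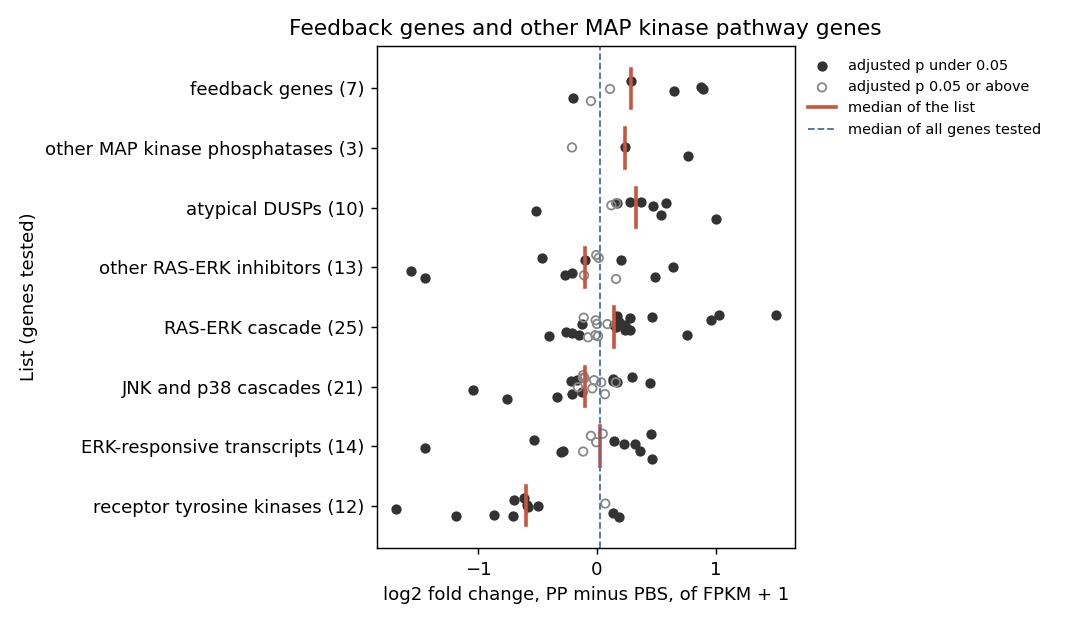
Log2 fold change of FPKM + 1, PP minus PBS, of each tested gene of the feedback genes and of 7 other lists, with filled points for an adjusted p under 0.05, open points for the others, a red bar for each list's median and a dashed line for the median of all genes tested (0.02). The median is 0.29 for the feedback genes, 0.02 for the ERK-responsive transcripts and -0.60 for the receptor tyrosine kinases.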

How the data were processed

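The authors deposited FPKM for 17177 genes by symbol in 6 libraries, 3 with PBS and 3 with PP. The methods name Bowtie and hg19, RSEM, Cufflinks and HTSeq-count with fewer replicates per group, whereas the submitters' processing notes name fastp, HISAT2, HTSeq and GRCh38, and which gave the deposited values was not settled. Gene coordinates come from the GENCODE annotation on hg19. Since the FPKM of a gene moved in steps of 1 fragment, dividing by the step gave back whole counts (tolerance 0.01 of a count) for all 17177 genes, with totals of 29064253 to 32481171. Within a treatment no pair of libraries was alike beyond sampling noise (chi-square per degree of freedom 3.37 to 7.07).

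Genes with a mean of at least 1 FPKM were kept (11726), and a second fit used a minimum of 0.1 FPKM (13771). log2(FPKM + 1) was fitted with limma 3.58.1 in R 4.3.3 (lmFit, eBayes with a trend, Benjamini-Hochberg adjustment), after tests on simulated data. Alternatives were pseudocounts of 0.1 and 0.5, other filters, median-ratio scaling, no trend, leaving out each library, a replicate block and limma-voom on recovered counts. Ratios were tested by exact permutation (scipy 1.17.1). The 10 genes and all lists were chosen with earlier results of these data known. All 10 feedback genes are named. Of each other list, the genes with the highest and lowest called log2 fold change could be named, besides markers used as checks, of which 2 are not reported here. The exact interval for *SPRED1* covers counting error only, whereas voom intervals include the spread between libraries.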

Additional observations from a re-analysis of the deposited data

How the results depend on the processing

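These counts are over the genes with a mean of at least 1 FPKM, or over those that another filter kept. The second fit, which held *SPRY4* and *DUSP5*, is not in them. The number of feedback genes called higher was 4 under every alternative run. The count called lower was 1, became 2 with a filter of 0.1 FPKM, which lets *SPRY4* in, and ranged from 0 to 1 when single libraries were left out, since *DUSP4* was lost without PBS replicate 2, PBS replicate 3, PP replicate 1 or PP replicate 3. Without any filter *DUSP4* had an adjusted p of 0.0513 and the 1 gene called lower was *SPRY4*. No gene passed the stricter cutoff upward in the fit as reported, and 1 did (*SPRY2*) with a pseudocount of 0.1 and with limma-voom on recovered counts. The ratio of *SPRED2* to *SPRED1* changed sign with a pseudocount of 0.1 (0.12, exact permutation p = 0.4). Of 133 alternative values for single feedback genes, 5 of *DUSP4* lost the call and 2 of *DUSP5* gained it, 2 of *SPRED1* moved in size with the same sign (other pseudocounts, no test), and the other 124 were alike in direction and call.

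Deviations of libraries with the same replicate number did not go together (correlations -0.21, -0.014 and -0.13), so the numbers are not treated as a pairing. With the replicate block 4 feedback genes were higher and 1 was lower among those with a mean of at least 1 FPKM, as without it. In the second fit with that block *DUSP5* passed as well (log2 fold change 0.21, limma adjusted p = 0.0242). Depth limits *SPRED1*, with 15 to 29 fragments in each library, while the spread of *DUSP5* between libraries exceeded its counting error.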
